A study of Mus musculus with 9 samples.

Results

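The serine-threonine phosphatases of the PPP family were examined in the striatum of R6/2 mice, through the genes of their catalytic and regulatory subunits. Members were the genes whose symbol gives a subunit of phosphatase type 1 to 6 (Ppp1c or Ppp1r up to Ppp6c or Ppp6r), without Ppp1r1a and Ppp1r1b, and each was represented by its brightest probe set. The rule used names and no measured difference. It found 77 of the 18193 genes named by the array annotation: 43 of protein phosphatase 1 (PP1), 17 of PP2A, 5 of calcineurin, 7 of PP4, 1 of PP5 and 4 of PP6. Among them 11 were catalytic subunits, and 4 were pseudogenes or an antisense transcript that carry a subunit's name (Ppp1r2-ps7, Ppp1r2-ps9, Ppp4r1l-ps and Ppp2r2cos).

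The tissue came from 9 female mice of a mixed C57Bl/6 and CBA background, described as 12 weeks old. The 5 R6/2 mice carry a transgene with exon 1 of human huntingtin and an expanded CAG repeat, so Huntington disease is modelled from a fragment of the protein. The 4 wild-type mice (46, 47, 49 and 66) and the R6/2 mouse labelled R62_86 were 85 days old, and the other R6/2 mice (R62_95, R62_105, R62_107, R62_109) were 83 days old. Each mouse was 1 array. Values are deposited log2 expression levels, and the arrays were scaled to nearly the same overall distribution. A level therefore tells how a gene stands within its array rather than RNA per cell.

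Phosphatases of this family have a small number of catalytic subunits, and most of their specificity comes from the regulatory proteins bound to them. PP1 pairs with a targeting or inhibitory protein, PP2A is built from a scaffold, a catalytic and a B-type subunit, and calcineurin is a catalytic A subunit with the calcium-binding B subunit. In spiny projection neurons, the main cells of the striatum, dopamine and glutamate signals meet on these enzymes: the product of Ppp1r1b, DARPP-32, inhibits PP1 when cyclic AMP rises, and calcineurin, switched on by calcium and calmodulin, removes that inhibition.

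The labelled tissue was checked against markers. All 16 measured markers of striatal projection neurons were well expressed in wild-type mice, with a mean level of 11.50 to 11.81, and all 16 fell in R6/2 mice, where the mean lay at 9.62 to 10.52 (median log2 difference -1.46). Markers of neighbouring tissue also varied. The mean of 10 cortex projection neuron markers ran from 5.77 to 7.02 in wild-type and from 6.67 to 7.81 in R6/2 mice, and 4 of them rose and 0 fell. The mean of 9 choroid plexus and ependyma markers ran from 5.69 to 8.19 and from 5.25 to 6.85, and was highest in wild-type 47 and 66 and in mouse R62_107; 0 of the 9 passed limma's test. Of glial markers, 5 of 10 astrocyte, 4 of 9 microglia and 3 of 9 oligodendrocyte genes fell and 0 rose. Of 9 interneuron markers 4 fell and 0 rose, led by the cholinergic genes Slc5a7 (-1.01 ± 0.15) and Slc18a3 (-0.83 ± 0.12). A further cholinergic gene, Chat, was dim at a mean level of 4.06 and did not pass (0.04 ± 0.06). Pvalb (0.52 ± 0.30) and Calb2 (0.58 ± 0.40) had positive values and did not pass. The part of these cell types in the members' values was not tested. In bulk tissue, fewer cells of a type and less RNA per cell cannot be told apart.

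Of the 77 members, 10 rose and 16 fell in R6/2 mice, and 51 did not pass an adjusted p of 0.05 (limma, Benjamini-Hochberg adjustment over all 18193 genes). The share past the threshold was 33.8%, against 16.9% of all genes tested, of which 9.28% were higher and 7.57% lower. Among the brighter 50% of genes, 29.8% passed (17.9% higher, 11.9% lower), and 9 of the 54 members there were higher and 15 lower. By type, 3 of the 43 PP1 genes rose and 8 fell, 3 of the 17 PP2A genes rose and 4 fell, and 1 of the 5 calcineurin genes rose and 2 fell. Of PP4 and of PP6, 1 gene rose and 1 fell each, and the PP5 gene rose. The 13 members whose mean level was under 5, near the dim end of the arrays, included none past the threshold. Few such dim genes passed in the whole series either, 219 of 6048. The median log2 difference of the members was -0.06, with a range of -1.18 to 0.84, and that of all genes was -0.02.

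**Figure D1:**
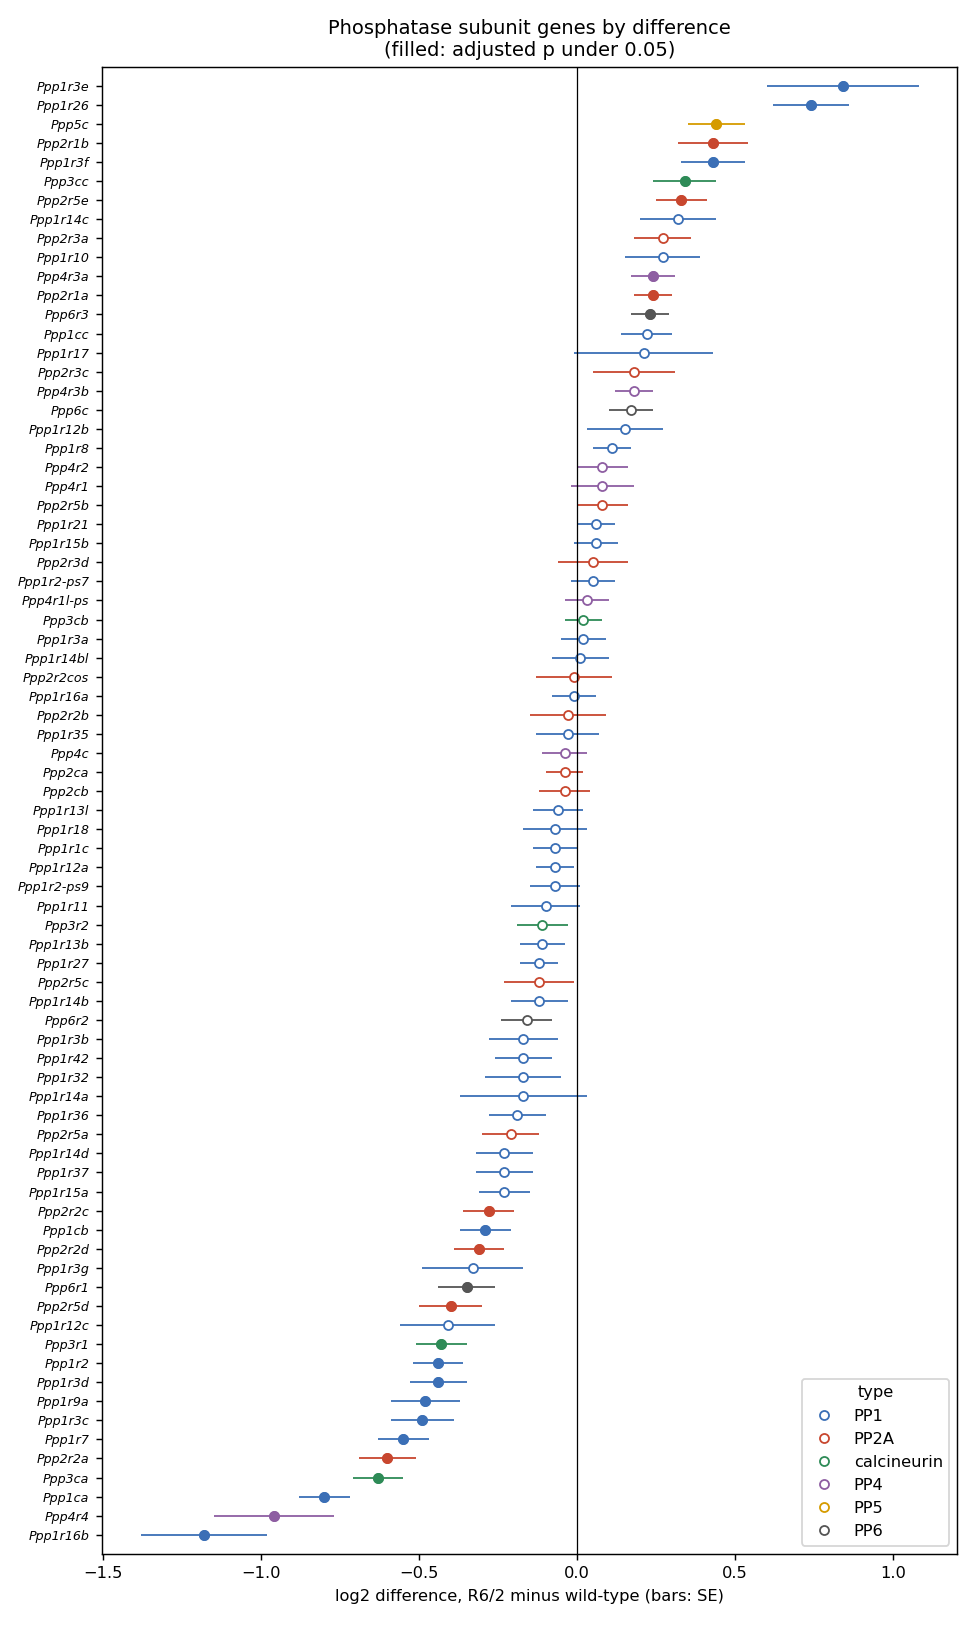
Log2 difference (R6/2 minus wild-type, horizontal axis) of all 77 members, sorted, with SE bars; colours give the phosphatase type and filled points passed an adjusted p of 0.05. Ppp1r16b, Ppp4r4, Ppp1ca and Ppp3ca lie at the low end, and Ppp1r3e and Ppp1r26 at the high end; centred on housekeeping genes, the rises of Ppp2r1a, Ppp4r3a and Ppp6r3 turn to -0.01, -0.01 and -0.02.

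In 25 members the 2 genotypes did not overlap, 9 with all R6/2 mice above and 16 with all below; of all genes 17.3% had no overlap, 9.18% with R6/2 above and 8.09% below. Mouse R62_86, the only R6/2 mouse of the same age as the controls, lay beyond the wild-type range in the direction of the difference for 26 of the 26 members past the threshold. Among all genes past it this held for 97%. That mouse was itself among the arrays that gave the calls, so its position is not a separate test of age. Within a genotype the members were steady: the median SD was 0.13 in wild-type and 0.12 in R6/2 mice, and the highest were 0.41 for Ppp1r14a in wild-type and 0.52 for Ppp1r3e in R6/2 mice. The direction of small rises depends on the reference. Hprt, Pgk1 and Polr2a, 3 of 6 measured housekeeping genes, were themselves higher, and centring on the 6 put the all-gene median at -0.27 in place of -0.02. Then 1 member was higher and 50 were lower, against 2.41% and 58.4% of all genes (60.8% together). Without limma's moderation of the variances, 5 members rose and 14 fell, against 5.94% and 5.08% of all genes (11% together). At an adjusted p under 0.01, 2 members were higher and 10 lower, against 3.34% and 3.57% of all genes.

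**Figure D2:**
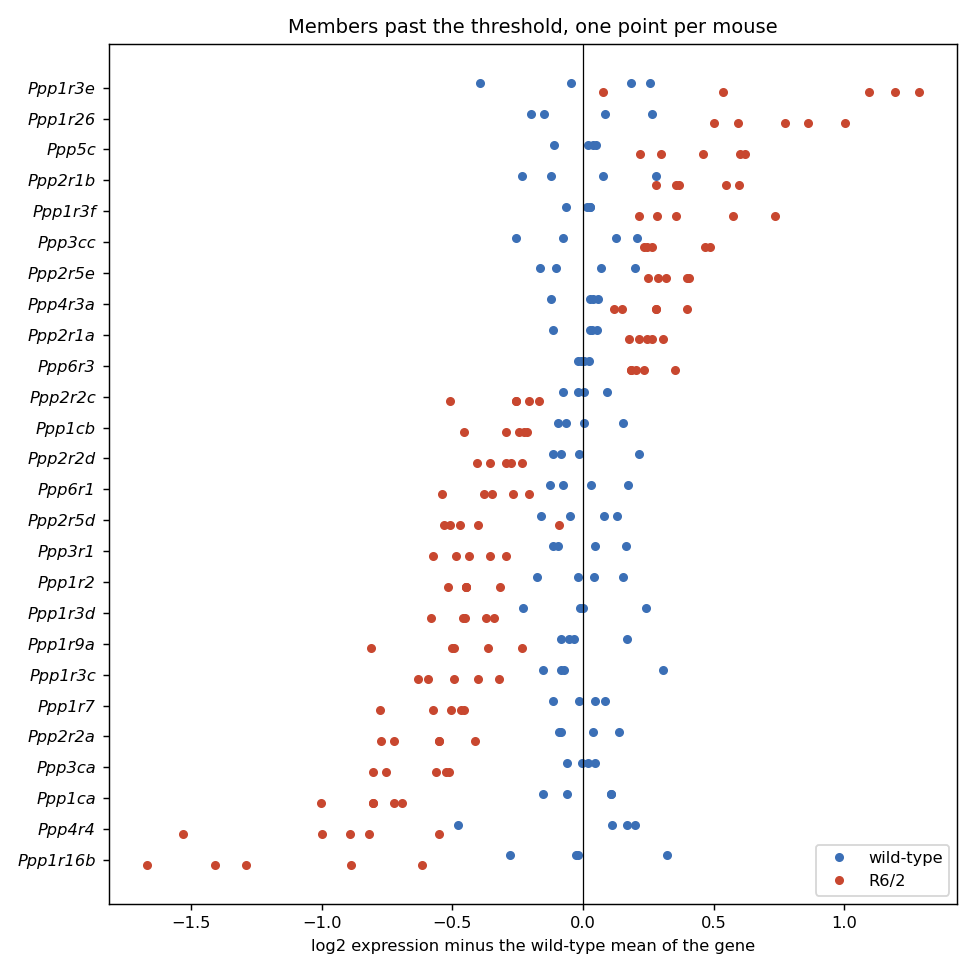
Log2 expression minus the gene's wild-type mean (horizontal axis) for the 26 members past the threshold, 1 point per mouse, wild-type in blue and R6/2 in red. The R6/2 points of Ppp1ca and Ppp3ca are apart from the wild-type points, whereas those of Ppp1r3e, Ppp2r1b and Ppp2r5d overlap with them; the rises of Ppp2r1a, Ppp4r3a and Ppp6r3 are not there after centring on housekeeping genes.

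For 4 members the 250 bases upstream of the start in the RefSeq promoter table (GRCm38.p6) are shown: Ppp1r7 and Ppp3r1, which fell, and Ppp1r26 and Ppp5c, which rose. They were picked by hand among members that passed the threshold and have a single start in that table. The window of Ppp1r26 lies inside the annotated gene, past the gene's annotated start, and the window of Ppp1r7 runs a little past that gene's annotated start. Of the 77 members, 60 have an entry in the promoter table. Capitals mark 3 motifs searched on both strands: TGACG, the core of the cyclic AMP response element; GGGCGG, the GC box bound by Sp1; and GCGNGGGCG, the site of Egr factors, which can overlap with a GC box.
Ppp1r7 (chr1:93343378-93343627, + strand): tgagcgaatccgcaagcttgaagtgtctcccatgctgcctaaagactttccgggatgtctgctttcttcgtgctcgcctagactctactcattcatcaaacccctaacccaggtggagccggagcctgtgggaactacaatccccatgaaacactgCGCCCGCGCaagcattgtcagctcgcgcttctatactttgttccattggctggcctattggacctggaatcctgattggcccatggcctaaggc
Ppp3r1 (chr11:17159048-17159297, + strand): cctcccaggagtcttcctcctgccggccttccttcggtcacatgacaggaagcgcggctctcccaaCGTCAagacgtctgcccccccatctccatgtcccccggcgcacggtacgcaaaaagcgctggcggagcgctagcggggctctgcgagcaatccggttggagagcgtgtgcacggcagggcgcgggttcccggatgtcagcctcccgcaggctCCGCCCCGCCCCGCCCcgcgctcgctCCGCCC
Ppp1r26 (chr2:28446820-28447069, + strand): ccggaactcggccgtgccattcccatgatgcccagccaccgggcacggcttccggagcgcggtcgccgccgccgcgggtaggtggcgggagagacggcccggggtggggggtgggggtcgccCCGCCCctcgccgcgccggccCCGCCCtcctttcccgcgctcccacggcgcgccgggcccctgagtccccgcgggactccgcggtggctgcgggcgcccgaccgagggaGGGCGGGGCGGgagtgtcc
Ppp5c (chr7:17027915-17028164, - strand): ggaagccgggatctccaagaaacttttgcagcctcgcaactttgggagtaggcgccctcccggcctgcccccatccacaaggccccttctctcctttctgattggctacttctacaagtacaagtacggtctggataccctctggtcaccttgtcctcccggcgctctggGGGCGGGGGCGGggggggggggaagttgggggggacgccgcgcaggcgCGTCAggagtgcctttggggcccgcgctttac

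The GC box occurs 4 times in the window of Ppp3r1, 4 times in that of Ppp1r26 and 2 times in that of Ppp5c, and is not in the window of Ppp1r7. Of all promoters in the RefSeq set, 32.7% hold a GC box, 17.8% the cyclic AMP element core and 4.7% the Egr motif. Among promoters of members that fell, 11 of 17 hold a GC box, 5 of 17 the cyclic AMP core and 2 of 17 the Egr motif; among those of members that rose these were 7 of 7, 4 of 7 and 2 of 7. Promoters of members that did not pass gave 27, 14 and 5 of 49. Some genes have more than 1 promoter here. Each match is a description of the letters.

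Among the catalytic subunits, which carry out the dephosphorylation, 3 fell, 2 rose and 6 did not pass. The share that passed was 45.5%, against 16.9% of all genes and 29.8% of the brighter 50%. Ppp1ca, the alpha form of PP1, fell by the most of the catalytic subunits. Its level was 11.88, 11.97, 12.14 and 12.14 in wild-type mice 46, 47, 49 and 66, and 11.31, 11.23, 11.03, 11.34 and 11.23 in the R6/2 mice R62_86, then R62_95, R62_105, R62_107, and last R62_109. All R6/2 mice were below all wild-type mice, and the gap between the groups was wider than the spread within either. The log2 difference was -0.80 ± 0.08 (SE, adjusted p 0.000302), which is 0.573 of the wild-type level.

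Ppp1cb, the beta form that serves the myosin phosphatase, fell by less. It was 11.49, 11.34, 11.27 and 11.24 in the wild-type mice in the same order, and 11.11, 10.88, 11.09, 11.04 and 11.12 in the R6/2 mice. The groups were apart, with a difference of -0.29 ± 0.08 (SE, adjusted p 0.0238). That call ended without wild-type 46 (adjusted p 0.0604) or 47 (0.0576), and a dimmer probe set of Ppp1cb with a mean level of 7.43 gave 0.61 ± 0.18 (adjusted p 0.0556), and the average over its probe sets was 0.01 ± 0.07 (adjusted p 0.952). Ppp1cc, the gamma form that neurabin and spinophilin bring to dendritic spines, averaged 12.00 ± 0.12 over wild-type (SD, n = 4) and 12.22 ± 0.10 over R6/2 mice (SD, n = 5), and did not pass (0.22 ± 0.08, SE, adjusted p 0.0769). The groups of Ppp1cc overlapped, since wild-type 66 at 12.15 stood above mouse R62_86 at 12.11 and level with mouse R62_95 at 12.15.

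Ratios between the PP1 forms are given as a description with no test, because the pairs were chosen after the values of their members had been seen. The log2 ratio of Ppp1ca to Ppp1cc changed by -1.02 ± 0.11 (SE, R6/2 minus wild-type), with no overlap, and by -0.84 ± 0.14 with the cortex marker mean as a covariate. The ratio of Ppp1ca to Ppp1cb changed by -0.51 ± 0.13 and that of Ppp1cb to Ppp1cc by -0.50 ± 0.11, and both rest on the brightest probe set of Ppp1cb. With the cortex covariate the first was -0.16 ± 0.07 and the second -0.67 ± 0.13. The groups of the ratio of Ppp1ca to Ppp1cb only just missed each other, since wild-type 46 stood at -0.31 and mouse R62_95 at -0.34 relative to the wild-type mean. A ratio within an array shows unequal change, not which form moved.

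Of the calcineurin genes, Ppp3ca and Ppp3r1 fell, Ppp3cc rose, and Ppp3cb and Ppp3r2 did not pass. Ppp3ca, the A-alpha catalytic subunit and the predominant form in brain, was 13.09, 13.03, 13.11 and 13.14 in wild-type mice, and 12.58, 12.29, 12.34, 12.57 and 12.53 in R6/2 mice. The wild-type values lay within a narrow band and every R6/2 value was under it. The difference was -0.63 ± 0.08 (SE, adjusted p 0.000581), or 0.647 of the wild-type level. All 3 probe sets of Ppp3ca passed on their own, at -0.63, -0.67 and -0.61.

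Ppp3r1, the calcium-binding calcineurin B subunit that the A subunit needs for activity, fell as well. It was 12.15, 11.99, 12.27 and 12.01 in wild-type mice, and 11.81, 11.53, 11.67, 11.75 and 11.62 in R6/2 mice. The groups did not overlap (-0.43 ± 0.08, SE, adjusted p 0.00556), although a second probe set of Ppp3r1 with a mean level of 7.87 gave -0.12 ± 0.14 (adjusted p 0.612). Ppp3r2, a B subunit known from testis, was dim, at 3.58 ± 0.08 (SD, n = 4) and 3.46 ± 0.15 (SD, n = 5), and did not pass.

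Ppp3cb, the A-beta form, was 11.46, 11.35, 11.54 and 11.43 in wild-type mice and 11.49, 11.51, 11.45, 11.45 and 11.44 in R6/2 mice. These values overlapped throughout (0.02 ± 0.06, SE, adjusted p 0.823). A probe set of the same gene with a mean level of 5.96 behaved otherwise: it was 6.31, 6.30, 6.47 and 6.33 in wild-type mice and 5.98, 5.48, 5.49, 5.52 and 5.75 in R6/2 mice. There the groups were apart, by -0.71 ± 0.11 (SE, adjusted p 0.00292), while the other 3 probe sets of Ppp3cb gave 0.05, 0.17 and 0.04 and did not pass. Which transcripts each probe set reads was not tested.

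Ppp3cc, the A-gamma form, rose. It was 5.68, 5.30, 5.76 and 5.48 in wild-type mice, and 5.82, 6.02, 5.79, 5.80 and 6.04 in R6/2 mice. The R6/2 mice were all above the wild-type mice, but the closest pair lay 5.76 against 5.79 (0.34 ± 0.10, SE, adjusted p 0.0442). This call ended in 7 of the 9 fits that left out 1 mouse, at adjusted p 0.0571 to 0.116, and with quantile, median or housekeeping centring (0.09 with the last, adjusted p 0.487). The log2 ratio of Ppp3ca to Ppp3cb changed by -0.65 ± 0.08 (SE), again a description of a pair chosen with its values known. The ratio of Ppp3ca to Ppp3cc changed by -0.97 ± 0.13 and that of Ppp3cb to Ppp3cc by -0.31 ± 0.09.

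**Figure D3:**
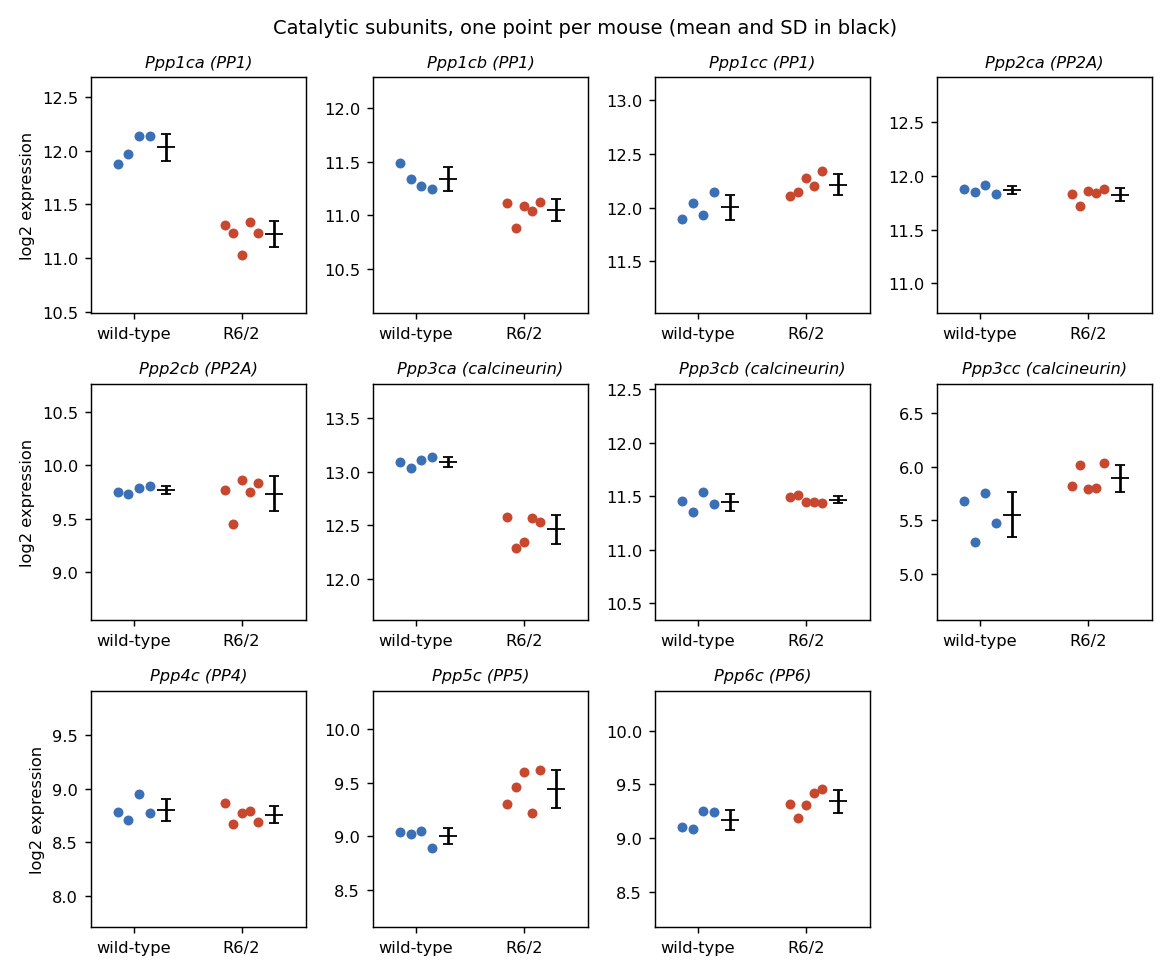
Log2 expression (vertical axes, each spanning 2.2 units) of the 11 catalytic subunits in wild-type (blue) and R6/2 mice (red), 1 point per mouse, with mean and SD in black. Ppp1ca and Ppp3ca drop clear of the wild-type values and Ppp5c stands above them, while Ppp2ca, Ppp2cb, Ppp3cb and Ppp4c overlap.

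The catalytic subunits of PP2A did not pass. Ppp2ca averaged 11.87 ± 0.04 over wild-type (SD, n = 4) and 11.83 ± 0.06 over R6/2 mice (SD, n = 5) (-0.04 ± 0.06, SE, adjusted p 0.637). Ppp2cb was 9.77 ± 0.04 and 9.73 ± 0.16 (-0.04 ± 0.08, adjusted p 0.798), and mouse R62_95 was low at 9.45 among values of 9.75 to 9.86. Their log2 ratio changed by -0.01 ± 0.06 (SE). After centring on housekeeping genes both PP2A catalytic genes were lower, at -0.30 (adjusted p 0.00405) and -0.29 (adjusted p 0.0164).

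The PP2A scaffold genes, on which the core enzyme is assembled, rose, a direction that Ppp2r1a did not keep after centring on housekeeping genes (-0.01, adjusted p 0.891). Ppp2r1a was 12.65, 12.62, 12.48 and 12.63 in wild-type mice, and 12.81, 12.90, 12.86, 12.77 and 12.84 in R6/2 mice. The step was small but the groups were apart (0.24 ± 0.06, SE, adjusted p 0.0213), and its 5 probe sets all passed, at 0.24 to 0.33; the call ended without mouse R62_105 (adjusted p 0.0503). Ppp2r1b, the second scaffold gene, was 6.90 ± 0.23 (SD, n = 4) and 7.33 ± 0.14 (SD, n = 5), with wild-type 66 at 7.18 level with mouse R62_107 at 7.18 (0.43 ± 0.11, SE, adjusted p 0.0225). Its call ended without wild-type 46 (adjusted p 0.0588) or mouse R62_105 (0.0543) or R62_109 (0.0559), and with housekeeping centring (0.18, adjusted p 0.176).

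Of the 4 PP2A B subunits, which direct the enzyme to its substrates, 3 fell and 0 rose. Of all genes 7.57% fell and 9.28% rose, and of the brighter 50% these were 11.9% and 17.9%. Ppp2r2a, the alpha form, was 10.45, 10.46, 10.68 and 10.58 in wild-type mice, and 9.99, 10.13, 9.77, 9.99 and 9.82 in R6/2 mice. The groups were well apart (-0.60 ± 0.09, SE, adjusted p 0.00124), and 3 of 3 probe sets passed. Ppp2r2d fell by 0.31 ± 0.08 (SE, adjusted p 0.0193), and its groups did not overlap. Ppp2r2c, named here after its value was seen, was -0.28 ± 0.08 (adjusted p 0.0309), and its call ended without wild-type 46, 47 or 66 or mouse R62_107 or R62_109. The antisense transcript Ppp2r2cos, from within the Ppp2r2c locus, was dim and gave -0.01 ± 0.12.

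The B prime subunits, a second class of PP2A targeting subunits, went both ways. Of 5, Ppp2r5e rose, Ppp2r5d fell and 3 did not pass. The share that passed was 40%, against 16.9% of all genes and 29.8% of the brighter 50%. Ppp2r5d, a form that protein kinase A activates and that acts on DARPP-32, was 9.08 ± 0.13 (SD, n = 4) and 8.68 ± 0.18 (SD, n = 5), a difference of -0.40 ± 0.10 (SE, adjusted p 0.0202). Its groups overlapped through mouse R62_95, at 8.99 against a lowest wild-type value of 8.92, and the call ended without wild-type 66 (adjusted p 0.0606) or mouse R62_86 (0.0506) or R62_105 (0.0504). Ppp2r5e was 8.53 ± 0.16 and 8.86 ± 0.07, with all R6/2 mice above (0.33 ± 0.08, SE, adjusted p 0.0182), and that call ended without wild-type 47 (adjusted p 0.0547) or 66 (0.0552) and with housekeeping centring (0.08, adjusted p 0.437). Ppp2r5c, with 7 probe sets, passed on 1 of them (-0.37 ± 0.09, adjusted p 0.0254) and not on the brightest (-0.12 ± 0.11, adjusted p 0.539). None of the 3 B double prime genes passed limma's test; the closest, Ppp2r3a, was 0.27 ± 0.09 (adjusted p 0.0564).

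**Figure D4:**
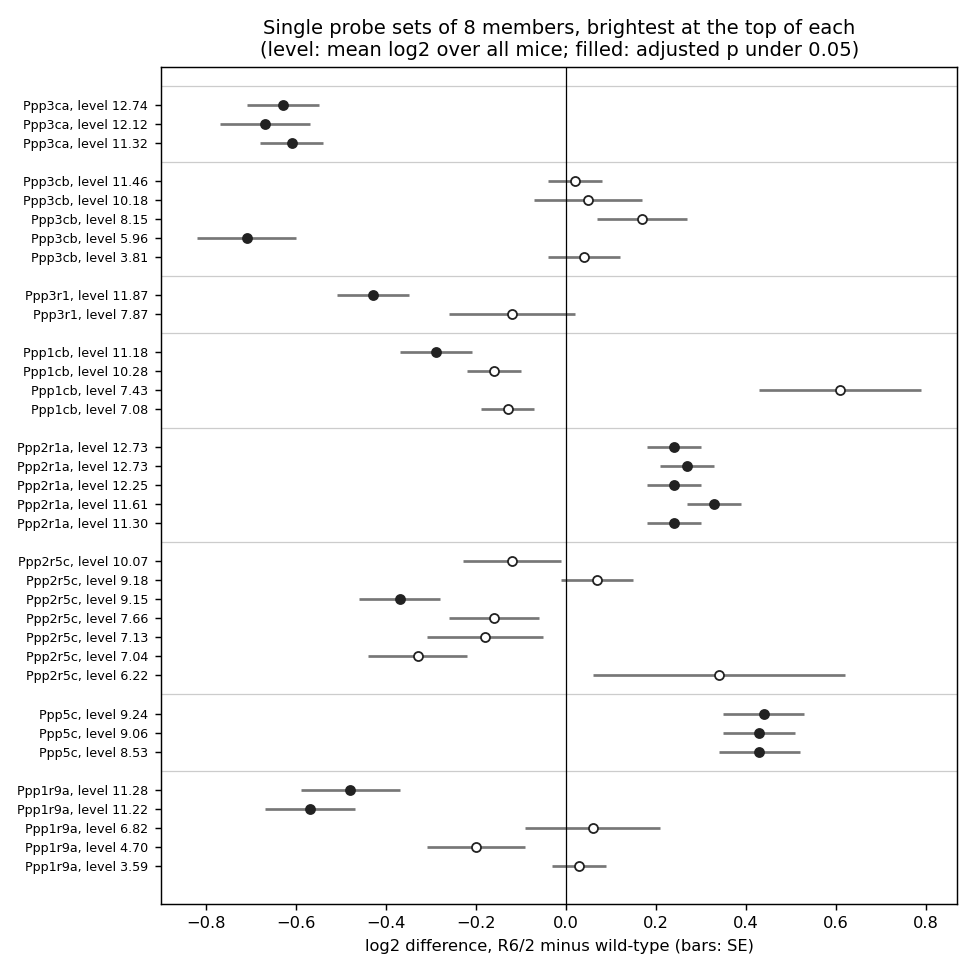
Log2 difference (R6/2 minus wild-type, horizontal axis, SE bars) of each probe set of 8 members, with its mean level; filled points passed an adjusted p of 0.05 over 34945 probe sets. The probe sets of Ppp3ca, Ppp2r1a and Ppp5c lie together, whereas those of Ppp3cb, Ppp1cb and Ppp2r5c spread on both sides of 0; the rise of Ppp2r1a turns to -0.01 after centring on housekeeping genes.

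PP1 has the most regulatory genes. Of 38 measured, 6 fell, 3 rose and 29 did not pass. The share that passed was 23.7%, against 16.9% of all genes and 29.8% of the brighter 50%. The lowest of the PP1 regulatory genes was Ppp1r16b, a membrane-anchored relative of the myosin-targeting subunits. It was 9.70, 9.95, 10.30 and 9.96 in wild-type mice, and 9.09, 9.36, 8.31, 8.57 and 8.69 in R6/2 mice. The R6/2 mice were all lower, and spread over more than 1 log2 unit (-1.18 ± 0.20, SE, adjusted p 0.00319, 0.443 of the wild-type level). Both probe sets of Ppp1r16b passed on their own. The other 4 genes of the Ppp1r12 and Ppp1r16 group, Ppp1r12a, Ppp1r12b, Ppp1r12c and Ppp1r16a, did not pass.

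Ppp1r7, which encodes SDS22, a partner that binds newly made PP1, averaged 10.11 ± 0.09 over wild-type (SD, n = 4) and 9.56 ± 0.13 over R6/2 mice (SD, n = 5). The R6/2 mice reached 9.66 at most and all wild-type mice were above that (-0.55 ± 0.08, SE, adjusted p 0.00136), with both probe sets past the threshold. Ppp1r2, inhibitor-2 of PP1, was 11.31 ± 0.14 (SD, n = 4) and 10.87 ± 0.07 (SD, n = 5), without overlap (-0.44 ± 0.08, SE, adjusted p 0.00346). Of the 4 probe sets of Ppp1r2 only this brightest one passed. The others gave -0.48, -0.11 and -0.18 (limma, adjusted p 0.0834, 0.306 and 0.249). The pseudogenes Ppp1r2-ps7 and Ppp1r2-ps9 were dim and did not pass.

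Ppp1r9a, which encodes neurabin, an actin-binding protein that holds PP1 in dendritic spines, fell. It was 11.51, 11.46, 11.49 and 11.71 in wild-type mice, and 11.05, 11.31, 10.73, 11.18 and 11.04 in R6/2 mice. The groups did not overlap (-0.48 ± 0.11, SE, adjusted p 0.0133), and the 2 bright probe sets of the 5 passed.

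Ppp1r26, a nucleolar PP1 partner, rose. It was 7.08, 6.90, 6.62 and 6.67 in wild-type mice, and 7.32, 7.41, 7.82, 7.59 and 7.68 in R6/2 mice. Every R6/2 mouse was above every wild-type mouse (0.74 ± 0.12, SE, adjusted p 0.00282, 1.67 times the wild-type level), and Ppp1r26 was the member still called higher after centring on housekeeping genes (0.49, adjusted p 0.00541).

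The genes Ppp1r3a to Ppp1r3g encode subunits that bring PP1 to glycogen, and they went both ways. Of these, 2 fell, 2 rose, and Ppp1r3a, Ppp1r3b and Ppp1r3g did not pass. Ppp1r32, Ppp1r35, Ppp1r36 and Ppp1r37 share only the start of the symbol and did not pass. Over all 11 the share that passed was 36.4%, against 16.9% of all genes and 29.8% of the brighter 50%. Ppp1r3c, also called PTG, was 9.74 ± 0.21 (SD, n = 4) and 9.25 ± 0.13 (SD, n = 5), and its groups did not overlap (-0.49 ± 0.10, SE, adjusted p 0.00922). Ppp1r3d fell by 0.44 ± 0.09 (SE, adjusted p 0.00917). Ppp1r3f rose by 0.43 ± 0.10 (adjusted p 0.0156), or 0.18 after centring on housekeeping genes (0.149), and Ppp1r3e by 0.84 ± 0.24 (adjusted p 0.0363). Ppp1r3e was the least steady member: mouse R62_107 at 4.92 lay within the wild-type range of 4.45 to 5.10 while mouse R62_95 reached 6.13, and its call ended in 7 of the 9 fits that left out 1 mouse (adjusted p 0.0501 to 0.105).

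Other PP1 partners did not pass. Ppp1r15a and Ppp1r15b, which bring PP1 to the translation factor eIF2 alpha, gave -0.23 ± 0.08 (adjusted p 0.0619) and 0.06 ± 0.07 (adjusted p 0.601). The 5 Ppp1r14 genes, a family of PP1 inhibitors, lay between -0.23 and 0.32. The nuclear partners Ppp1r8 and Ppp1r10 gave 0.11 ± 0.06 and 0.27 ± 0.12, and the p53-binding partners Ppp1r13b and Ppp1r13l -0.11 ± 0.07 and -0.06 ± 0.08.

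PP5, a phosphatase whose regulatory and catalytic domains lie in 1 protein and that associates with the chaperone Hsp90, rose. Ppp5c was 9.04, 9.02, 9.05 and 8.89 in wild-type mice, and 9.30, 9.46, 9.60, 9.22 and 9.62 in R6/2 mice. The groups were apart (0.44 ± 0.09, SE, adjusted p 0.00906, 1.35 times the wild-type level), and its 3 probe sets gave 0.43 to 0.44 and all passed; after centring on housekeeping genes it was 0.19 ± 0.10 (adjusted p 0.107).

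Of PP4 and PP6, the catalytic genes Ppp4c (-0.04 ± 0.07, SE, adjusted p 0.705) and Ppp6c (0.17 ± 0.07, adjusted p 0.131) did not pass, and each had regulatory subunits that moved in both directions. Ppp4r4, a regulatory subunit of PP4, was 6.55, 6.64, 5.96 and 6.61 in wild-type mice, and 5.55, 4.91, 5.44, 5.62 and 5.89 in R6/2 mice. Wild-type 49 was low and came close to mouse R62_109, but the groups did not overlap (-0.96 ± 0.19, SE, adjusted p 0.00761, 0.515 of the wild-type level). Ppp4r3a gave 0.24 ± 0.07 (adjusted p 0.0459), lost in 7 of the 9 fits without 1 mouse and turned to -0.01 after centring on housekeeping genes. Of the PP6 subunits, Ppp6r1 fell by 0.35 ± 0.09 (adjusted p 0.0185; 0.0538 without wild-type 66). Ppp6r3 rose by 0.23 ± 0.06 (adjusted p 0.0218; 0.0502 without wild-type 47), but stood at -0.02 after centring on housekeeping genes.

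Of the 26 members past the threshold 18 had more than 1 probe set. In 12 of them all probe sets had 1 sign, in 10 more than 1 probe set passed, and in 6 every one did: Ppp1r16b, Ppp1r7, Ppp2r1a, Ppp2r2a, Ppp3ca and Ppp5c. Over all single probe sets 12.2% passed. That share is not a like comparison, because the 18 members were chosen through a brightest probe set that had passed among the genes. Averaging the probe sets of each gene ended the calls of Ppp1cb, Ppp1r3e, Ppp1r9a, Ppp2r2d, Ppp2r5e, Ppp3cc and Ppp4r3a, and a test without moderation those of Ppp1r3e, Ppp1r3f, Ppp2r1b, Ppp2r2c, Ppp2r5d, Ppp3cc and Ppp4r3a.

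The remaining members did not pass. The B subunit gene Ppp2r2b gave -0.03 ± 0.12 (adjusted p 0.88) and the B prime gene Ppp2r5a -0.21 ± 0.09 (adjusted p 0.139). Ppp1r12c, a myosin-targeting subunit, had a larger difference with a larger error (-0.41 ± 0.15, adjusted p 0.0909). Ppp1r11, inhibitor-3 of PP1, gave -0.10 ± 0.11. Of the PP4 subunits, Ppp4r3b gave 0.18 ± 0.06 (adjusted p 0.0701), next to its paralog Ppp4r3a, and Ppp4r2 0.08 ± 0.08, although a dimmer probe set of Ppp4r2 passed (0.24 ± 0.07, adjusted p 0.041). Ppp6r2, the third of the PP6 subunits, gave -0.16 ± 0.08 (adjusted p 0.175).

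The cortex markers varied with genotype, so the members were also fitted with their mean as a covariate. All 26 members past the threshold kept their sign, and 3 passed: Ppp1ca (-0.60 ± 0.09, SE, adjusted p 0.0142), Ppp1cb (-0.44 ± 0.09, adjusted p 0.0431) and Ppp3ca (-0.57 ± 0.11, adjusted p 0.0338). Over all genes 2.22% passed in that fit, 0.879% higher and 1.34% lower. At an unadjusted p under 0.05 there were 20 of the 77 members and 17% of all genes. Ppp3r1 was -0.42 ± 0.12 (adjusted p 0.121), near its value of -0.43 without the covariate but with a larger error. The values that moved by over 1.5 times were those of Ppp1r9a, from -0.48 to -0.25 (adjusted p 0.374), Ppp2r5d, from -0.40 to -0.21 (0.447), Ppp5c, from 0.44 to 0.27 (0.284), and Ppp1r26, from 0.74 to 0.47 (0.128), all nearer to 0, and that of Ppp1cb, from -0.29 to -0.44, farther from it. The ratio of Ppp3ca to Ppp3cb was -0.63 ± 0.13 with the covariate. The part of cortex tissue in these results was not tested further.

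**Figure D5:**
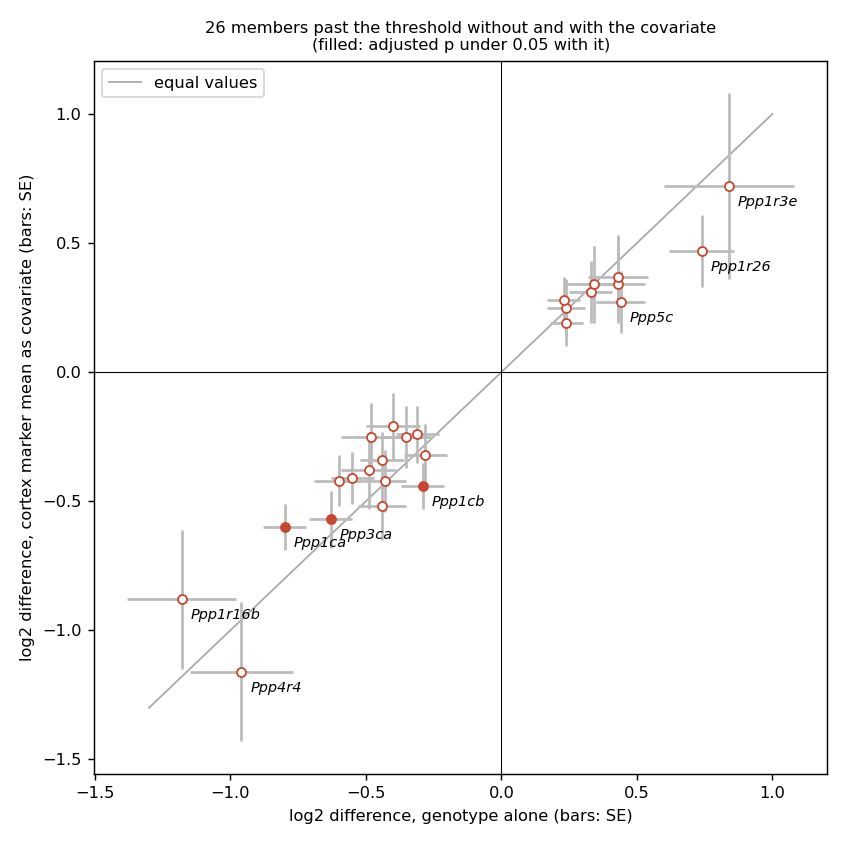
Log2 difference of the 26 members past the threshold in the fit of genotype alone (horizontal) and with the cortex marker mean as a covariate (vertical), both R6/2 minus wild-type with SE bars; the grey line marks equal values and filled points passed with the covariate. Ppp1ca, Ppp1cb and Ppp3ca are filled, and Ppp1r26 and Ppp5c lie nearer to 0 than the line; after centring on housekeeping genes instead, 3 of the 10 rises turned.

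Without the 3 arrays richest in choroid plexus markers, 2 members were higher and 8 lower, against 2.16% and 2.69% of all genes (4.85% together). These were Ppp2r1b and Ppp1r3e, and Ppp1ca, Ppp1r2, Ppp1r3c, Ppp1r3d, Ppp1r7, Ppp2r2a, Ppp3ca and Ppp3r1, and all 26 kept their sign. With age as a covariate, where mouse R62_86 alone carries the comparison at equal age, 0 members passed by limma, against 0.165% of all genes (0.022% higher, 0.143% lower). At an unadjusted p under 0.05 there were 14 of the 77 members and 13.8% of all genes. Ppp1ca was -0.72 ± 0.15 and Ppp3ca -0.51 ± 0.13 there, and all 26 kept their sign.

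The partners of these enzymes outside the member names gave mixed values. The share past the threshold was 27.3% for the PP1 partners and 33.3% for the PP2A modifiers and inhibitors. Over all genes it was 16.9%, and among the brighter 50% of genes 29.8%. Of 11 further PP1 partners 3 fell and 0 rose (median -0.13), among them Phactr1, an actin and PP1 binding protein (-0.93 ± 0.12, SE, adjusted p 0.000612), and Phactr3 (-0.46 ± 0.08, adjusted p 0.00377). Of 15 PP2A modifiers and inhibitors 3 rose and 2 fell (median 0.06). The lowest was Arpp19, whose phosphorylated product inhibits PP2A: it fell by 1.77 ± 0.11 (adjusted p 3.19e-05) to 0.293 of the wild-type level. Anp32e, of the acidic nuclear phosphoprotein family, rose by 0.40 ± 0.07 (adjusted p 0.00419).

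Of 13 genes of STRIPAK, the complex in which striatins serve PP2A as B-type subunits, 3 fell and 2 rose (median -0.09). Slmap fell by 0.67 ± 0.07 (adjusted p 0.000318), Strn, the founding striatin, by 0.87 ± 0.11 (adjusted p 0.000735), and the kinase gene Stk24 rose by 0.53 ± 0.06 (adjusted p 0.000491). Of 12 calcineurin partners and NFAT factors 2 fell and 0 rose (median -0.04): Akap5, which anchors calcineurin at synapses (-0.90 ± 0.15, adjusted p 0.00306), and Rcan2, a calcineurin regulator (-0.23 ± 0.06, adjusted p 0.0279). A list of 18 further serine-threonine phosphatase genes, of the metal-dependent PPM family except for Ppef2, a PPP phosphatase outside types 1 to 6, gave 5 rises and 4 falls (median 0.05). Ppef2 was 1 of the falls (-0.28, adjusted p 0.0396). The 2 smallest p were those of Pdp1, the pyruvate dehydrogenase phosphatase, at -1.19 ± 0.11 (adjusted p 0.000143) and Phlpp2 at 0.59 ± 0.09 (adjusted p 0.00221). Of 19 genes of kinases, their regulatory subunits and activators that act on shared substrates, 6 rose and 3 fell (median 0.03), with Prkar2a, which encodes a protein kinase A regulatory subunit, at 0.68 ± 0.09 (adjusted p 0.000787) and Prkcb at -0.62 ± 0.07 (adjusted p 0.00046). The share past the threshold was 38.5% for STRIPAK and 16.7% for the calcineurin list. It was 50% for the further phosphatases and 47.4% for the kinase list, against 16.9% of all genes and 29.8% of the brighter 50%.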

How the data were processed

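The authors' deposited values were log2 expression levels of 45101 probe sets on 9 arrays, for which the submitters' processing notes name RMA and affy without versions. RMA scales the arrays to each other, and the medians of the deposited levels were near but not equal (5.37 to 5.45). Arrays correlated at 0.979 to 0.995, each counted as 1 replicate, and their number limits the precision.

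Of 35890 annotated probe sets, 34945 named 1 gene outside the controls. The 77 members had 170 probe sets, 42 members more than 1, and all 77 kept their symbol in RefSeq (GRCm38.p6). Genotypes were compared with limma 3.58.1 (lmFit, eBayes) in R 4.3.3 over 18193 genes, two-sided, with Benjamini-Hochberg adjustment and a threshold of 0.05; no dim genes were removed. The test was checked on simulated data with independent noise for each gene, without differences in tissue make-up or age between arrays. Members, lists and tests were chosen with earlier results of these data known.

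Named were all catalytic subunits, the 10 highest and lowest members past the threshold, the 2 smallest p of each regulatory class and of each partner list, and members with 1 probe set called higher and another called lower, of which there were 0. Ppp2r2c, Ppp2r2cos, Ppp2r5c, Strn, Ppef2 and other members outside this rule were added after their values were seen. Alternatives changed the probe set of a gene, the filter, the scaling, the variance model, the covariates, the threshold and the arrays used.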

Additional observations from a re-analysis of the deposited data

Results flagged for a closer look

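In 6 of 68 groups of values of the named members, 1 mouse stood far from the others of its genotype, where chance gives about 1 in 20 groups. R6/2 mouse R62_95 was the outlying one for Ppp2cb (9.45, the others 9.75 to 9.86), Ppp2r5d (8.99, the others 8.55 to 8.68) and Ppp6r3 (8.69, the others 8.52 to 8.57). Wild-type mouse 66 was apart for Ppp5c (8.89, the others 9.02 to 9.05) and for the dim Ppp3r2 (3.70, the others all 3.53). Wild-type mouse 49 was apart for Ppp4r4 (5.96, the others 6.55 to 6.64).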

How the results depend on the processing

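No paired analysis was possible because no animal number occurs in both genotypes. Of the main counts (10 members higher, 16 lower; 11 of PP1, 7 of PP2A and 3 of calcineurin past the threshold), those that moved by over 1.5 times were as follows. Centring on housekeeping genes gave 1 higher, 50 lower and 33 of PP1. Without moderation 5 were higher and 4 of PP2A passed. Age as a covariate gave 0 for all 5 counts by limma (14 members had an unadjusted p under 0.05, and 13.8% of all genes). The cortex covariate gave 0 higher (20 members had an unadjusted p under 0.05, and 17% of all genes), 3 lower, 2 of PP1, 0 of PP2A and 1 of calcineurin. Without the 3 choroid-rich arrays there were 2 higher, 8 lower, 6 of PP1 and 2 of PP2A. At an adjusted p under 0.01 there were 2 higher, 10 lower, 7 of PP1 and 1 of PP2A. Leaving out 1 mouse gave 5 to 9 higher, 13 to 18 lower, 9 to 12 of PP1, 4 to 8 of PP2A and 2 to 3 of calcineurin; members higher were 5 without wild-type 47, 6 without wild-type 66 and 5 without mouse R62_105, and 4 of PP2A passed without either of the last 2. Over all 18193 genes, leaving out 1 mouse gave 1120 to 1699 higher and 1020 to 1386 lower, against 1688 and 1378 with all mice. Of 25 named members past the threshold, 15 stayed past it in all 9 of these fits. Signs turned for Ppp1cb with the mean of its probe sets (0.01, adjusted p 0.952), and with housekeeping centring for Ppp2r1a (-0.01), Ppp4r3a (-0.01) and Ppp6r3 (-0.02); the cause was not tested beyond the rise of the housekeeping genes themselves. Quantile and median centring changed the share of higher calls over all genes from 55.1% to 49.6% and 49.5%, and housekeeping centring to 3.96%.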
